A study of Mus musculus with 2931 samples.

Results

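The clustered histone genes were the 63 rows, of 18072 gene symbols in the count table, whose symbol began with Hist1h, Hist2h, Hist3h or Hist4h. They were 6 genes of the linker histone H1, 17 of H2A, 17 of H2B, 10 of H3 and 13 of H4. RNA had been read in 2931 single lung endothelial cells (EC) of the inner lining of vessels, and each deposited sample was 1 cell. There were 10 mice, 1 female (F) and 1 male (M) in each of 5 groups: embryonic day E18.5, postnatal day P1, P7 or P21, all in air, and P7 with hyperoxia (raised oxygen in the gas breathed). Cells were sorted by gates named CD31 (2694 cells), mesench and CD45, CD31 being an endothelial surface protein. No genotype, strain or oxygen level was given in the sources used here, nor do they say if a mouse name is 1 animal or several pooled, so n counts mouse names and p-values measure the spread between these. Of the 10 subtype labels given by the submitters, Proliferative EC (390 cells) is the cycling class below, and the 2531 cells of 8 other labels form the noncycling class. The remaining 10 cells were labelled Proliferative venous EC.

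Histones are the proteins around which DNA is wound, with H2A, H2B, H3 and H4 in the core and H1 on the linker. The clustered genes supply the new histones for DNA copied in S phase, and their messages are known to end in a stem-loop in place of a poly(A) tail. The stem-loop is bound by the protein of the gene Slbp, and the messages are known to decay when S phase ends. Some clustered genes are also known to give polyadenylated messages from a signal downstream of the stem-loop, mainly in cells that do not divide. Whether the libraries were primed on poly(A) was not given in the sources used here, so how far messages without a poly(A) tail were captured is unknown.

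In the GENCODE M21 annotation (GRCm38), 54 of the genes belonged to the Hist1 group on chromosome 13, 5 to Hist2 on chromosome 3, 3 to Hist3 on chromosome 11 and 1 to Hist4 on chromosome 6. A stem-loop of 16 bases was found in the annotated 3′ end of 43 genes, with its start between 21 and 54 bases after the stop codon. The sequences below, from the GENCODE M21 transcripts, show how alike this element was in genes whose levels differed widely. Capitals mark the stem of 6 base pairs, and the lower-case loop has 4 bases.

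Hist1h1c, chr13:23739507-23739532, plus strand: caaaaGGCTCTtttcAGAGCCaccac
Hist1h1e, chr13:23621777-23621802, minus strand: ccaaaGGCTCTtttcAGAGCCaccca
Hist1h2ab, chr13:23751567-23751592, plus strand: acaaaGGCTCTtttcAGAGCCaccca
Hist1h2ae, chr13:23570663-23570688, minus strand: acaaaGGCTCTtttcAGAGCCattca
Hist1h4d, chr13:23581945-23581970, plus strand: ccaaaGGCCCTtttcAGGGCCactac
Hist3h2a, chr11:58955167-58955192, plus strand: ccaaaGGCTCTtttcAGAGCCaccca

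The 16-base element with the letters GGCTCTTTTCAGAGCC occurred in 23 genes, among them all those printed except Hist1h4d. Hist1h4d had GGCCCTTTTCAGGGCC, which occurred in 7 genes. Hist1h2bc had an annotated 3′ region of 742 bases after its stop codon with no stem-loop found. Its annotated transcript has 2 exons, as do those used for Hist1h2bq and Hist1h2br. Only the spliced sequence was searched, so a stem-loop in the stretch removed by splicing would have been missed.

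The histone genes also share much of their sequence with each other, which limits how far single genes can be told apart. Of the stretches of 50 bases in a gene, a median of 49.3% occurred in another gene as well, and 29 of 63 genes shared at least 50% of them. Hist1h2ao and Hist1h2ap shared 93.5% and 93.1%, most often with each other. How reads that fit several genes were counted is not given in the sources used here, so the split between such genes is uncertain. Hist1h1e overlapped Hist1h2be, and Hist3h2a overlapped Trim17, on the same strand in the annotation. Predicted genes on the other strand overlap Hist1h2ab and Hist1h2ae among others, and no strand setting of the counting is known.

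Histone reads made up 2177108 of 2062278606 reads, which is 0.106%, and 2564 cells (87.5%) had at least 1 of them. A cell had a median of 621406 reads. The summed reads of a mouse ranged from 5927917 to 98545597 in the cycling class of the 8 mice with at least 8 such cells, and from 47612765 to 270680573 in their noncycling class. The endothelial markers were high in both classes, with a summed level of 4748 to 6883 CPM (reads per 1000000 reads) in cycling and 6501 to 8670 CPM in noncycling sums. The summed leukocyte, epithelial, mesenchymal, and erythroid and platelet markers reached at most 21.3, 59.7, 316.2 and 269.5 CPM in the cycling class and 53.1, 141.7, 141.5 and 136.5 CPM in the noncycling class, with no listed marker at 0 in every mouse.

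Cycling cells carried several times more histone reads than noncycling cells in each of the 8 mice. Summed over the 63 genes, there were 6122 and 3749 CPM in the cycling cells of the female and male E18.5 mice, 5957 and 6982 CPM at P1, 1104 and 2655 CPM at P7, and 2485 and 1781 CPM after hyperoxia. The noncycling cells of the same mice had 1058 and 713 CPM at E18.5, 748 and 1278 at P1, 206.5 and 335.1 CPM at P7, and 261.98 and 327.4 CPM after hyperoxia. In each mouse the cycling sum was the higher, although the cycling sum of the female P7 mouse lay below the noncycling sum of the male P1 mouse. The ratio within a mouse ran from 5.26 to 9.49 with a geometric mean of 6.42 (log2 ratio 2.68 ± 0.34, SD, n = 8).

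**Figure D1:**
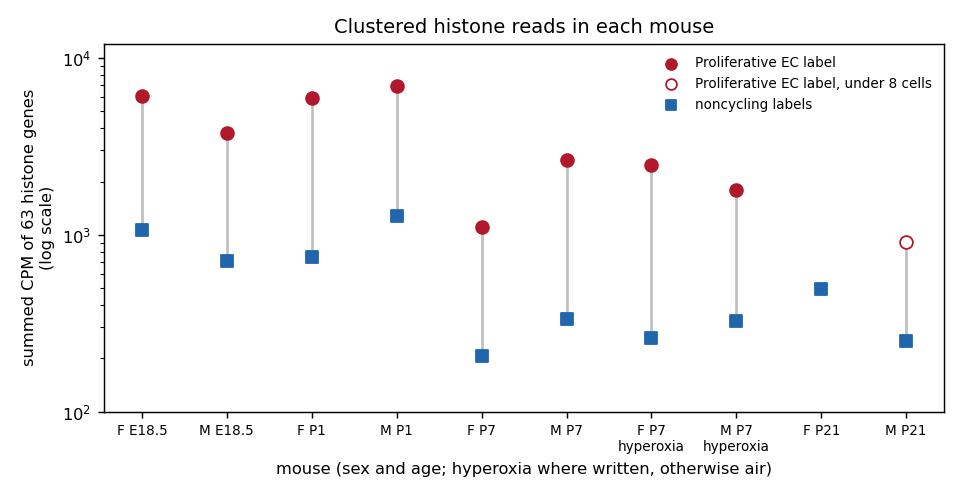
Summed CPM of the 63 histone genes (log scale) in the Proliferative EC cells (red circles) and the cells of noncycling labels (blue squares) of each mouse, joined by a line. The red point lies above the blue point in all mice that have both, by 5.26 to 9.49 times in the 8 mice with at least 8 cycling cells, and the female P21 mouse had no Proliferative EC cell.

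Of the 63 genes, 53 passed the filter on low counts for this comparison, and 41 of them rose in cycling cells while 0 fell, by edgeR's quasi-likelihood test with the mouse as a block and Benjamini-Hochberg adjustment over 13065 genes. Of all genes tested, 5.41% rose and 3.44% fell. The median fitted log2 difference was 4.398 over the 53 histone genes and -0.27 over all genes. The level was higher in the cycling cells of all 8 mice for 40 of the 53 tested genes, against 5.0% of all genes tested. The sources used here do not say how the subtype labels were made, and such labels are usually drawn from the expression of the same cells, so these calls describe the labelled classes and are not independent evidence. DESeq2 called 47 and limma 44 of the genes, all of them higher.

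The 10 genes that did not pass the filter were Hist1h1t, Hist1h2aj, Hist1h2bf, Hist1h2bl, Hist1h2br, Hist1h3g, Hist1h3h, Hist2h2ab, Hist2h3c2 and Hist3h2bb-ps. Their mean level was at most 2.19 CPM in cycling cells, in Hist1h2bf. The filter keeps a gene that is high in a few sums, so a gene at such levels enters the test more readily if the classes differ.

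**Figure D2:**
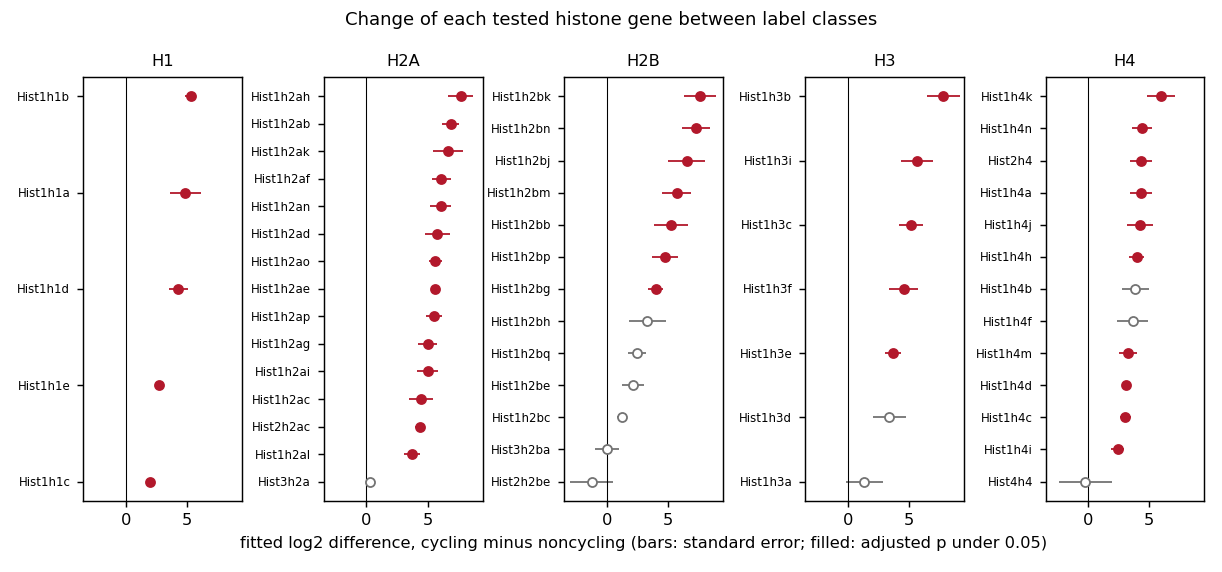
Fitted log2 difference (cycling minus noncycling) of the 53 tested histone genes by histone type, with standard errors derived from the edgeR fit to 8 mice. Filled points had an edgeR adjusted p under 0.05. H2A points except Hist3h2a lie between 3.74 and 7.71, while the H1, H2B and H4 panels reach down to 1.97, -1.27 and -0.23.

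Of the linker histones, all 5 tested genes rose. Hist1h1b (encoding H1.5) had 253.5 and 84.1 CPM in the cycling cells of the female and male E18.5 mice, 178.1 and 49.9 CPM at P1, 14.9 and 89.03 CPM at P7, and 56.6 and 47.4 CPM after hyperoxia. Its noncycling level was between 0.672 and 5.23 CPM in the same mice. The ranges of Hist1h1b did not overlap, and the log2 difference was 5.30 ± 0.47 (SE, n = 8 mice, edgeR adjusted p = 1.2e-05).

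Hist1h1e (H1.4) and Hist1h1c (H1.2) differed less between the classes and were among the 5 highest genes in both. Hist1h1e had 1622 and 254.002 CPM in cycling cells at E18.5, 2217 and 1904 CPM at P1, 79.2 and 391.1 CPM at P7, and 698.95 and 205.9 CPM after hyperoxia. Its noncycling cells had 378.03 and 39.3 CPM at E18.5, 313.3 and 545.6 at P1, 10.4 and 76.6 CPM at P7, and 58.2 and 34.3 CPM after hyperoxia. The female E18.5 mouse and both P1 mice stood high in each class, and Hist1h1e was higher in cycling cells in 8 of 8 mice (log2 difference 2.70 ± 0.17, SE, edgeR adjusted p = 8.9e-07). Hist1h1c ran from 120 to 627.9 CPM (median 236.3) in cycling and from 30.8 to 207.4 CPM (median 80.7) in noncycling sums. The ranges of Hist1h1c overlapped across mice but each mouse rose, with a log2 difference of 1.97 ± 0.22 (SE, n = 8, edgeR adjusted p = 7.8e-05).

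In H2A, 14 of 15 tested genes rose. Hist1h2ae gave the most H2A reads, with 579.3 and 821 CPM in cycling cells at E18.5, 408.2 and 411.7 CPM at P1, 73.5 and 258.7 CPM at P7, and 332.4 and 274.9 CPM after hyperoxia. The same mice had 11.7 and 33.6, 5.84 and 25.4, 2.01 and 3.59, and 3.83 and 5.22 CPM in noncycling cells. All cycling values of Hist1h2ae lay above all noncycling values, and the log2 difference was 5.58 ± 0.29 (SE, n = 8, edgeR adjusted p = 1.4e-07).

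Among called genes with at least 10 CPM and reads in at least 25% of cycling cells, the largest change was that of Hist1h2ab (chr13:23751126-23751598, GRCm38, 1 exon). Cycling cells held 50.1 and 43.9 CPM at E18.5, 51.5 and 46.1 at P1, 6.67 and 36.8 CPM at P7, and 56.9 and 27.3 CPM after hyperoxia. No noncycling sum of Hist1h2ab exceeded 2.51 CPM, and the log2 difference was 6.91 ± 0.70 (SE, n = 8, edgeR adjusted p = 4.2e-05). Only the female P7 mouse fell below 27 CPM in the cycling class.

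Other H2A genes moved by similar amounts, and these share between 52.3% and 93.5% of their 50-base stretches with other genes. Hist1h2ak differed by 6.65 ± 1.25, Hist1h2an by 6.06 ± 0.86, Hist1h2ao by 5.65 ± 0.55 and Hist1h2ap by 5.53 ± 0.62 (log2, SE, n = 8, edgeR adjusted p = 0.0048, 0.00061, 3.1e-05 and 0.0001). Their means in cycling cells were 11.3, 15.7, 31.8 and 28.6 CPM. The noncycling mean of Hist1h2ak, 0.934 CPM, came mostly from the male P7 mouse with 6.01 CPM, and the median over mice was 0.0548 CPM.

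The H2A gene that did not pass the test was Hist3h2a on chromosome 11. Cycling cells held 23.2 and 30.7 CPM at E18.5, 13.7 and 35.04 at P1, 21.03 and 15.6 CPM at P7, and 14.6 and 16.9 CPM after hyperoxia. Noncycling cells held 13.3 and 19.3, 16.2 and 19.7, 19.9 and 10.9, and 15.7 and 27.1 CPM. The ranges overlapped, 5 of 8 mice were higher in cycling cells, and the log2 difference was 0.32 ± 0.35 (SE, edgeR adjusted p = 0.62). At 17.8 CPM, Hist3h2a had the fifth highest mean of the histone genes in noncycling cells, with the overlap with Trim17 standing beside that value.

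In H2B, 7 of 13 tested genes rose. Hist1h2bj had a cycling range of 1.50 to 30.4 CPM (median 11.4) and a noncycling range of 0 to 1.29 CPM (median 0.17), with a log2 difference of 6.51 ± 1.49 (SE, n = 8, edgeR adjusted p = 0.016). Hist1h2bc, the H2B gene with the most reads, had 350 and 223.8 CPM in cycling cells at E18.5, 213.7 and 1504 CPM at P1, 146.3 and 90.9 CPM at P7, and 60.4 and 61.4 CPM after hyperoxia. Noncycling cells held 199.8 and 239.4 CPM at E18.5, 37.5 and 114.05 at P1, 67.3 and 38.9 CPM at P7, and 32.5 and 92.7 CPM after hyperoxia. Both classes overlapped, the male P1 mouse (9 cycling cells) stood far above the others, and the log2 difference of Hist1h2bc was 1.24 ± 0.41 (SE, n = 8, edgeR adjusted p = 0.084, higher in 6 of 8 mice). DESeq2 gave Hist1h2bc an adjusted p of 0.0345 with a log2 difference of 1.22, and limma one of 0.0345 with 1.38.

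H3 genes gave few reads, 1.48% of the histone reads in cycling and 0.934% in noncycling cells, and 5 of 7 tested genes rose. Their fitted log2 differences ran from 1.37 in Hist1h3a to 7.83 in Hist1h3b. In H4, 10 of 13 tested genes rose, with a median log2 difference of 3.84. Hist1h4d, the gene with the most cycling reads, had 1614 and 1359 CPM in cycling cells at E18.5, 1449 and 1781 CPM at P1, 260 and 1061 CPM at P7, and 764 and 582.8 CPM after hyperoxia. Noncycling cells held 124.9 and 131.9 CPM at E18.5, 210 and 365.3 at P1, 35.9 and 122.7 CPM at P7, and 85.3 and 95.03 CPM after hyperoxia. All mice rose, and the female P7 mouse was lowest in both classes (log2 difference 3.07 ± 0.15, SE, n = 8, edgeR adjusted p = 8.6e-08).

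Reads were concentrated on a few genes. Hist1h4d, Hist1h1e, Hist1h2ae, Hist1h1c and Hist1h2bc were the 5 highest in cycling cells and took 28.9%, 20.9%, 12.1%, 9.18% and 6.99% of their histone reads. In noncycling cells Hist1h1e took 29.6%, Hist1h4d 23.8%, Hist1h2bc 16.9%, Hist1h1c 15.3% and Hist3h2a 3.04%. These shares pool the reads of all 8 mice, and Hist1h4d had more CPM than Hist1h1e in 5 of them, all but the female E18.5 mouse and both P1 mice. H2A genes as a whole took 19.9% of the histone reads in cycling cells and 6.80% in noncycling cells, and H2B genes 10.2% and 19.3%. The H2A order held in every mouse. The H2B order was reversed in the male P1 mouse, with 1725 of 6982 CPM in cycling and 123.3 of 1278 CPM in noncycling cells. It held in the other mice, though barely in the female P1 mouse. Per kb of exon, the mean levels in noncycling cells were 128.6 CPM for Hist1h4d, 94.3 for Hist1h1e, 88.9 for Hist1h2bc, 62.5 for Hist1h1c, 16.2 for Hist1h2ae and 8.29 for Hist3h2a.

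The share of cells with a read separated the genes in the same way. Hist1h2ab was read in 61.6% of cycling cells and 3.71% of noncycling cells, and Hist1h2ae in 82.5% and 11.3%. Hist1h4d was read in 89.03% and 61.1%, Hist1h1e in 80.9% and 54.2%, and Hist3h2a in 30.8% and 20.2%. The classes had similar depths, with medians of 687357 reads in a cycling cell and 639280 reads in a noncycling cell (1831 cells). With each cell thinned to 50000 reads, which left out 0 cycling and 11 noncycling cells, the shares were 77.3% and 7.53% for Hist1h2ae and 87.2% and 58.1% for Hist1h4d.

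The annotated 3′ end of the genes was set beside their levels, by a grouping chosen after values had been seen and therefore with no test. A gene was put in the long-tail group where its transcript ran at least 100 bases past the stem-loop, as in 22 genes. With the reads of the mice pooled, these took much the same share of histone reads in both classes, 79.4% in noncycling and 78.4% in cycling cells. The 20 tested had a median log2 difference of 3.35, with 14 called. The 21 genes with a stem-loop and a shorter tail took 2.44% of noncycling and 9.13% of cycling histone reads. The 19 tested had a median of 5.18, with 16 called. The 13 genes whose transcript ended at or near the stop codon took 0.724% of noncycling and 5.19% of cycling reads. The 10 tested had a median of 6.00 and were all called. The 4 genes with a long 3′ region and no stem-loop found took 17.2% of noncycling and 7.19% of cycling reads, nearly all from Hist1h2bc. Of these genes, 0 of the 3 tested were called. The remaining 3 genes, Hist1h2aj, Hist1h2al and Hist3h2bb-ps, had no coding model in the annotation. The shares of reads in these groups pool the mice, which differed. In the male E18.5 mouse, Hist1h2bc had 223.8 of 3749 CPM in cycling and 239.4 of 713 CPM in noncycling cells. In the male P1 mouse the order was reversed, with 1504 of 6982 and 114.05 of 1278 CPM. The likeness of the long-tail shares therefore cannot be read as holding within each mouse.

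The tail after the stem-loop was 840 bases in Hist1h1c, 1153 in Hist1h1e, 770 in Hist1h4d, 1643 in Hist3h2a and 11 in Hist1h2ab. The letters of a poly(A) signal (AATAAA or ATTAAA) were found in the tails of Hist1h1c, Hist1h4d and Hist3h2a. They were not found in those of Hist1h1e and Hist1h2ab. The median level per kb of exon in noncycling cells was 0.852 CPM with a long tail and 1.05 CPM with a short tail. The tail is part of the length divided by, so a long tail lowers this measure. It therefore cannot tell if a tail goes with a high noncycling level. The groups differ in other ways, with a median of 23.3% of 50-base stretches shared with other genes in the long-tail group and 58.02% in the short-tail group, and the part of this in the result was not tested. A longer transcript also offers more sequence to be read.

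**Figure D3:**
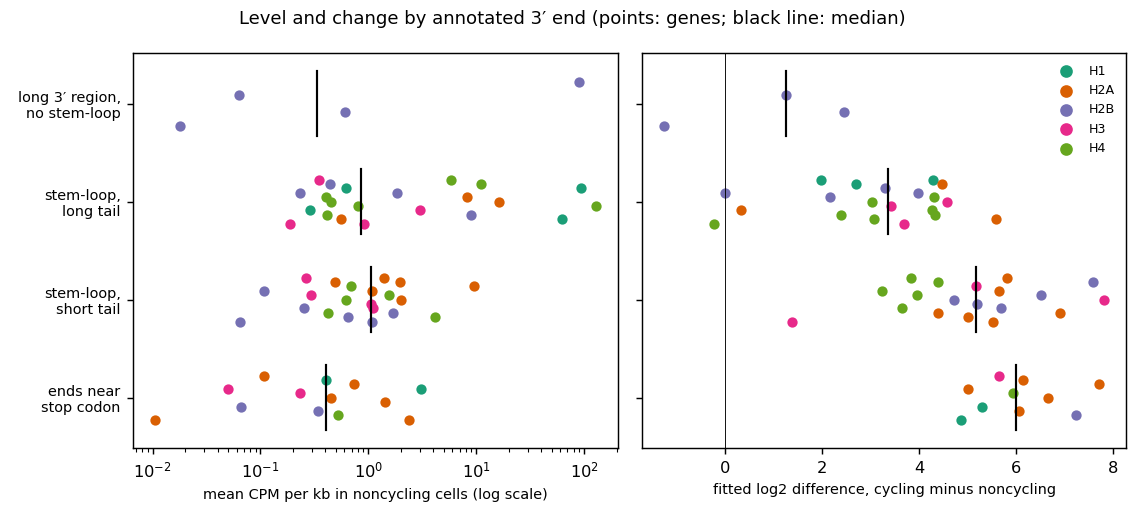
Mean CPM per kb of exon in noncycling cells (left, log scale) and fitted log2 difference, cycling minus noncycling (right), for genes grouped by annotated 3′ end, with points coloured by histone type and the median as a black line. The medians on the right are 6.00, 5.18, 3.35 and 1.24 from bottom to top. The bottom group ends near the stop codon, and the top group has a long 3′ region with no stem-loop found.

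Promoter letters were searched in the RefSeq promoters (GRCm38.p6, 250 bases before and 50 after the start), which matched 54 of the 63 genes. The CCAAT box (CCAAT, either strand) was in 45 of them (83.3%), against 37.4% of 32851 promoters in the table. The TATA box (TATAAA, either strand) was in 32 (59.3%), against 13.6%. The H2B octamer (ATTTGCAT, either strand), known to be bound by Oct1, was in 10 (18.52%), against 1.74%. CCAAT was in every matched promoter of H1, H2A, H2B and H3 and in 3 of 12 promoters of H4, and the octamer was in 6 of 14 H2A and 4 of 14 H2B promoters. Pairs of H2A and H2B genes are known to lie head to head and to share a promoter, so the windows are not all independent. A match of letters is a description and not a site.

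The 250 bases before the start are shown for Hist1h2ab and for the H2A gene that did not pass the test, with matches of the 3 motifs in capitals. Both hold CCAAT and the octamer, read as ATGCAAAT, and only the first holds TATAAA.

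Hist1h2ab, chr13:23750838-23751087, plus strand: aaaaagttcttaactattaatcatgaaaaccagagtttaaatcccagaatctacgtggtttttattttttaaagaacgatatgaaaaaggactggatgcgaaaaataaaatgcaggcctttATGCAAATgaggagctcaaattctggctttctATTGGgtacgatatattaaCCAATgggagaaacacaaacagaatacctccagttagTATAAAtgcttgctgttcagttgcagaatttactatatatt
Hist3h2a, chr11:58954435-58954684, plus strand: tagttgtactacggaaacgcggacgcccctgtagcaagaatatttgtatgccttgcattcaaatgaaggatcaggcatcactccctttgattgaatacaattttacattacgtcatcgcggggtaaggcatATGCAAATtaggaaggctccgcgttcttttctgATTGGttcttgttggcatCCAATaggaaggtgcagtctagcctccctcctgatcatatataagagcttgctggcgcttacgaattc

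Genes around histone supply were taken from lists. Of 13 tested genes of histone mRNA synthesis and processing, 2 rose and 0 fell. Slbp, whose protein binds the stem-loop, had a mean of 353.8 CPM in cycling and 124.4 CPM in noncycling cells and differed by 1.60 ± 0.15 (log2, SE, n = 8, edgeR adjusted p = 2.2e-05). Eri1, an exonuclease that acts on the histone 3′ end, differed by 1.74 ± 0.22 (edgeR adjusted p = 0.00024). Npat, a coactivator of histone transcription, had 43.04 and 25.7 CPM with an edgeR adjusted p of 0.28. The median log2 difference of these 13 genes was 0.42.

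Of 14 histone chaperone genes, 7 rose and 1 fell. Asf1b, which carries new H3 and H4, had a mean of 272.2 CPM in cycling and 17.7 CPM in noncycling cells (log2 difference 3.99 ± 0.37, SE, n = 8, edgeR adjusted p = 1.9e-05). The subunits Chaf1a and Chaf1b of the replication-linked assembly factor differed by 2.14 ± 0.46 and 1.12 ± 0.29 (edgeR adjusted p = 0.011 and 0.029). Hira, which deposits H3.3 outside replication, did not pass the test at 1.12 ± 0.79 (edgeR adjusted p = 0.44). Cabin1, a partner of Hira, fell by 0.67 on the log2 scale (edgeR adjusted p = 0.035).

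Of 11 histone variant genes outside the clusters, 8 rose and 0 fell, with a median log2 difference of 1.23. H2afx rose by 3.74 ± 0.16 and H2afz by 1.91 ± 0.15 (log2, SE, n = 8, edgeR adjusted p = 4e-08 and 5e-06). Cenpa, the H3 variant of centromeres, rose by 4.76 ± 0.33 (edgeR adjusted p = 1.7e-06). The H3.3 gene H3f3b had 2826 CPM in cycling and 2100 CPM in noncycling cells and rose by 0.50 ± 0.10 (edgeR adjusted p = 0.0073). H3f3a, the other H3.3 gene, had 151.3 and 152.5 CPM (log2 difference 0.09 ± 0.11, edgeR adjusted p = 0.67). All 14 G2 and mitosis genes and 15 of 18 S phase genes also rose.

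Single cycling cells varied widely in histone level. The cycling cells of the 8 mice ran from 0 to 54030 CPM with a median of 2499 CPM and quartiles of 1082 and 5391 CPM. The median per mouse was 5628 and 3038 CPM at E18.5, 7404 and 5781 at P1, 984 and 2478 CPM at P7, and 1428 and 1245 CPM after hyperoxia. The rank correlation of histone level with the summed S phase genes was 0.095 over all these cells, and -0.016 to 0.400 within a mouse. With the summed G2 and mitosis genes it was 0.301, and -0.096 to 0.610 within a mouse.

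Histone level also differed among the noncycling labels. Over mice with at least 8 cells of a label, the median summed level was 926 CPM for Lymphatic EC (4 mice), 930.05 CPM for Nonproliferative embryonic EC (2 mice), 602.8 CPM for Arterial EC I (7 mice), 505.2 CPM for Late Car4- capillaries (5 mice), 405.05 CPM for Car4+ capillaries (8 mice), 370.8 CPM for Venous EC (9 mice) and 285.2 CPM for Early Car4- capillaries (6 mice). Arterial EC II had 1 such mouse, with 857 CPM. The labels overlapped, since Lymphatic EC ran from 477.97 to 2221 CPM, Car4+ capillaries from 115.4 to 1189 CPM and Early Car4- capillaries from 221.998 to 1276 CPM. The labels were also present at different ages, so their medians rest on different mice.

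**Figure D4:**
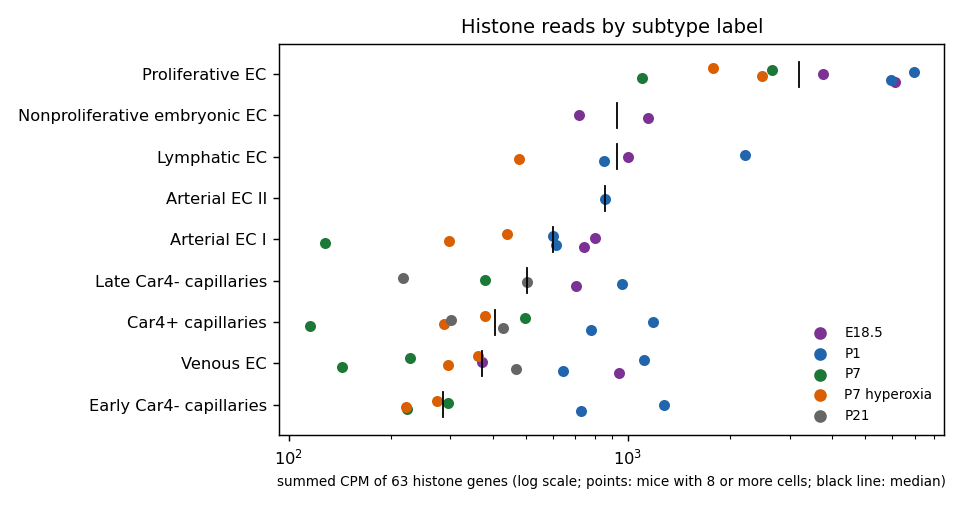
Summed CPM of the 63 histone genes (log scale) by subtype label, each point 1 mouse with at least 8 cells, coloured by age and treatment, with the median as a black line. Proliferative EC points lie between 1104 and 6982 CPM, and within most labels the E18.5 and P1 mice lie to the right of the P7 mice.

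Some noncycling labels held cells with reads of Mki67, a marker of cycling cells. Mki67 was read in 41.5% of 82 Lymphatic EC and 19.2% of Nonproliferative embryonic EC, against 2.08% to 6.90% in the other noncycling labels and 94.1% in Proliferative EC. In the male P1 mouse, the 11 Lymphatic EC with an Mki67 read had 2557 CPM of histone reads. In the female P1 mouse, Lymphatic EC had 1212 CPM with an Mki67 read (12 cells) and 627.9 CPM without (14 cells).

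In each of the 8 mice, the noncycling cells with an Mki67 read had a higher histone sum than those without. Leaving them out of the noncycling class, with the cycling class kept whole, could therefore only raise the ratio. The 1659 noncycling cells of the 8 mice with no Mki67 read had a summed histone level of 193.1 to 1164 CPM (median 479.1), and the cycling sums were 5.55 to 10.5 times higher within a mouse. In these cells Hist1h4d had a median over mice of 113.4 CPM, Hist1h1c 80.2, Hist1h2bc 78.1, Hist1h1e 64.4 and Hist3h2a 18.4 CPM. Hist1h2ae had 1.60 CPM and Hist1h2ab 0.0641 CPM there, against 45.8 and 3.81 CPM in the noncycling cells with an Mki67 read.

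By age, summed histone levels were lower at P7 than at E18.5 and P1 in both classes, while edgeR called no single histone gene in the comparisons between ages and DESeq2 called the few named below. The shares of all genes that DESeq2 called between ages are not given here, so its calls cannot be read as particular to histone genes. Cycling cells of E18.5, P1 and P7 had summed levels of 4935 ± 1678, 6470 ± 725 and 1880 ± 1097 CPM (SD, n = 2 each). In noncycling cells it was 886 ± 243.9, 1013 ± 374.5 and 270.8 ± 90.9 CPM, and 372.5 ± 174.3 CPM at P21. The 4 mice of E18.5 and P1 lay above both P7 mice in each class. No such order was seen in the S phase genes of the cycling cells, which summed to 2737 ± 148.2, 3073 ± 2426 and 3697 ± 1155 CPM. The G2 and mitosis genes of the cycling cells summed to 11318 ± 204.4, 9405 ± 1994 and 8512 ± 355.6 CPM, with both E18.5 mice above both P7 mice and the P1 mice on either side of the P7 mice. The part of this shift in the histone levels was not tested.

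Sequencing run moved with age for part of this. Of the CD31-gate cells, 1 run held the air females other than the P7 mouse, and another held the hyperoxia male with the air males other than the P1 mouse. Cells of the other gates were spread over further runs. Within the male run, the E18.5 mouse had 3709 CPM in cycling and 713 CPM in noncycling CD31-gate cells, and the P7 mouse had 2531 and 340 CPM. Within the female run the cycling class held 6138 CPM in the E18.5 mouse and 5957 CPM in the P1 mouse, and the noncycling class held 1058 and 743 CPM. No run held CD31-gate cells of both P1 and P7, so run and age cannot be told apart for that pair.

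Between E18.5 and P1, edgeR called 0 of 62 tested histone genes in cycling cells, and 0.0% of all genes were called. The unadjusted edgeR p was under 0.05 for 1 of 62 genes, against 7.42% of all genes, and DESeq2 and limma each called 0. Of the 62 fitted values, 37 were below 0. The mice did not overlap in 23 genes lower at P1, 37.1% against 27% of all genes, and in 4 higher, 6.45% against 9.72%. The median log2 difference was -0.25 over the histone genes and -0.16 over all genes. With RLE scaling the median of all genes was -0.03 and that of the histone genes -0.13. Hist1h1e had 2217 and 1904 CPM at P1 and 1622 and 254.002 CPM at E18.5 (log2 difference 1.26 ± 0.88, SE, edgeR adjusted p = 0.73). Hist1h2bm had 66.1 and 50.6 CPM at P1 and 38.1 and 23.1 CPM at E18.5, with an edgeR adjusted p of 0.83. Hist1h3d had 0.7 and 0 CPM against 10.4 and 11.3 CPM, and Hist1h2ag 3.9 and 3.1 CPM against 12.6 and 22.1 CPM (edgeR adjusted p = 0.66 and 0.71). Without the female P1 mouse, edgeR called 1 gene, Hist1h2bc, with P1 then resting on the male mouse alone and its spread assumed to be that of the other groups.

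Between P1 and P7 in cycling cells, edgeR called 0 of 62 histone genes and 0.0% of all genes. The unadjusted p was under 0.05 for 9 of 62 genes, all lower at P7, against 9.82% of all genes in either direction. Of the fitted values, 42 of 62 were below 0, with a median log2 difference of -0.70 against 0.08 over all genes. The mice of the groups did not overlap in 16 genes that were lower at P7, which is 25.8% of those tested against 12.2% of all genes, and in 10 that were higher, 16.1% against 25.8%. Hist1h1e had 79.2 and 391.1 CPM at P7 against 2217 and 1904 CPM at P1 (log2 difference -3.29 ± 0.95, SE, edgeR adjusted p = 0.49). Hist1h2bc had 146.3 and 90.9 CPM against 213.7 and 1504 CPM (log2 difference -3.10 ± 0.81, SE, edgeR adjusted p = 0.42). DESeq2 called 3 histone genes, Hist1h1e, Hist1h2bc and Hist1h2bm, with adjusted p of 0.0033, 0.0018 and 0.0018, and limma called 0. The 0.0% of all genes is that of edgeR, and the share for DESeq2 is not given here. Hist1h2bm had 7.31 and 2.23 CPM at P7 against 66.1 and 50.6 CPM at P1. Without the female P1 mouse, edgeR called the same 3 genes, but the P1 arm was then the male mouse alone, with 9 cells and a spread assumed from the other groups. The P1 cycling sums rest on 13 and 9 cells.

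Between E18.5 and P7, edgeR called 0 of 62 histone genes in cycling cells and 0.0458% of all genes. The unadjusted p was under 0.05 for 4 of 62 genes, all lower at P7, against 5.25% of all genes in either direction. Of the fitted values, 53 of 62 were below 0, with a median log2 difference of -1.03 against -0.08 over all genes. The mice did not overlap in 34 genes that were lower at P7, 54.8% of those tested, against 21.2% of all genes, and in 1 that was higher, 1.61% against 19.1%. Hist1h2ae had 73.5 and 258.7 CPM at P7 against 579.3 and 821 CPM at E18.5 (log2 difference -2.16 ± 0.57, SE, edgeR adjusted p = 0.51). Hist2h2ac had 15.7 and 56.3 CPM against 176.2 and 94.1 CPM (log2 difference -1.97 ± 0.71, SE, edgeR adjusted p = 0.89). DESeq2 called 1 gene, Hist1h2ae, with an adjusted p of 0.030, and limma called 0.

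**Figure D5:**
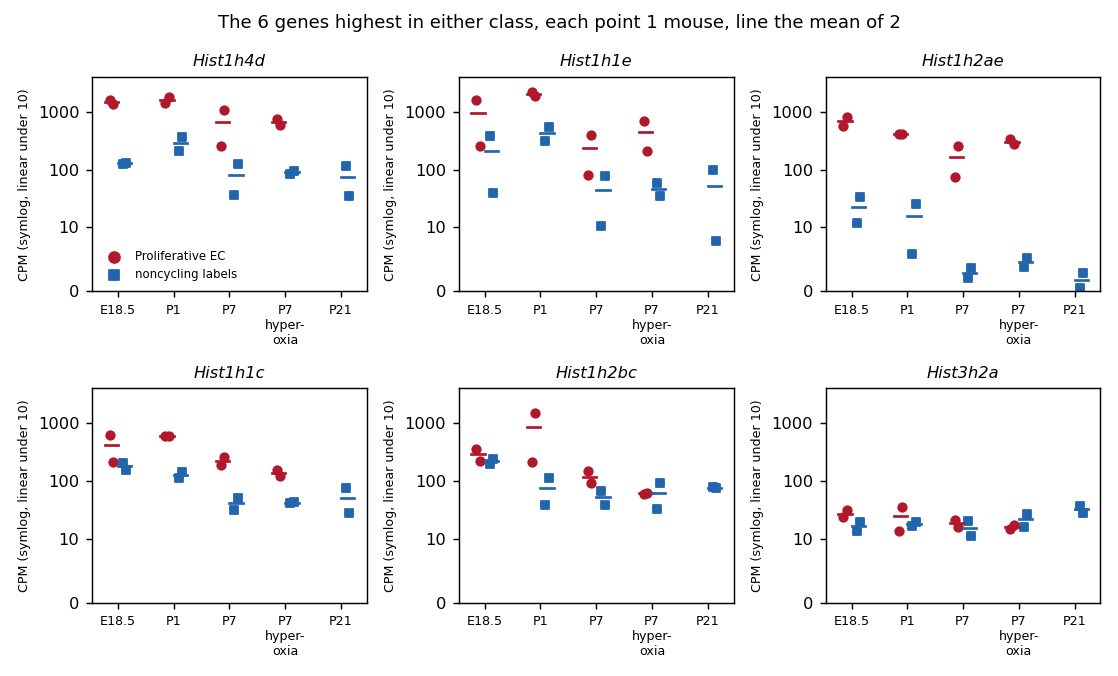
CPM (linear under 10, log scale above) of the 6 genes among the 5 highest of either class, in Proliferative EC (red circles) and noncycling labels (blue squares), each point 1 mouse and each line the mean of 2. The cycling and noncycling points of Hist3h2a overlap, while the cycling and noncycling points of Hist1h2ae lie apart in every group that has both.

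In Car4- capillaries (the Early and Late labels together, noncycling cells), the histone sum was 1012 ± 380.9 CPM at P1, 267.2 ± 34.3 CPM at P7 and 364.9 ± 210.2 CPM at P21 (SD, n = 2 each). Between P1 and P7, edgeR called 0 of 45 histone genes and 0.0% of all genes. The unadjusted p was under 0.05 for 5 of 45 histone genes, against 11.3% of all genes. The mice did not overlap in 14 genes that were lower at P7, 31.1% of those tested, against 19.1% of all genes, and in 7 that were higher, 15.6% against 21.1%. Hist1h1e had 12.2 and 55.8 CPM at P7 against 340 and 582.9 CPM at P1 (log2 difference -3.93 ± 1.03, SE, edgeR adjusted p = 0.39). Hist1h4d had 37.0019 and 99.9 CPM against 245.5 and 332.99 CPM (log2 difference -2.22 ± 0.57, SE, edgeR adjusted p = 0.39). DESeq2 called these 2 genes, with adjusted p of 0.047 and 0.0099, and limma called 0. The comparisons of Car4- and cycling cells use the same mice.

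Between P7 and P21 in Car4- capillaries, edgeR called 0 of 45 histone genes and 0.266% of all genes. The unadjusted p was under 0.05 for 3 of 45 histone genes, against 10.5% of all genes. The mice did not overlap in 12 genes that were higher and 5 that were lower at P21, 26.7% and 11.1% of those tested, against 19.7% and 21.5% of all genes. Hist2h4 had 9.8 and 20.3 CPM at P21 and 1.5 and 2.4 CPM at P7 (log2 difference 3.12 ± 1.76, SE, edgeR adjusted p = 0.55). DESeq2 called Hist1h1d as higher, at 16.9 and 0.3 CPM against 0.0488 and 0.513 CPM, and Hist1h1b as lower, at 0 CPM in both P21 mice against 0.987 and 0.513 CPM. The pooled class was mostly Early cells at P7, with 44 and 2 Late cells, and nearly all Late cells at P21, with 4 and 3 Early cells, so label and age cannot be told apart. The call of Hist1h1d rests on the female P21 mouse, and limma called 0.

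Nonproliferative embryonic EC of E18.5 were set against Car4- capillaries of P1, which differ in label as well as age. The histone sums were 930.05 ± 301.7 and 1012 ± 380.9 CPM (SD, n = 2 each). EdgeR called 0 of 51 histone genes and 0.494% of all genes, and DESeq2 and limma called 0 histone genes. The unadjusted edgeR p was under 0.05 for 7 of 51 histone genes, against 9.42% of all genes. The mice did not overlap in 21 genes that were higher in the embryonic cells, 41.2% of those tested, against 18.6% of all genes, and in 5 that were lower, 9.80% of those tested against 2389 of all 14967 genes. The median log2 difference was 1.26 against -0.02 over all genes. Hist1h4i had 30.4 and 9.8 CPM in embryonic EC and 2.6 and 1.7 CPM at P1, and Hist1h2bc 203.7 and 238.99 CPM against 27.8 and 147.1 CPM (edgeR adjusted p = 0.56 and 0.63). Hist1h4d lay the other way, with 141.3 and 137.6 CPM in embryonic EC and 245.5 and 332.99 CPM at P1 (edgeR adjusted p = 0.52). The embryonic cells also had more Mki67-positive cells, as given above, and the part of this in the result was not tested.

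Between hyperoxia and air, edgeR called no histone gene in the 4 classes compared, cycling cells, Car4- capillaries, Car4+ capillaries and Venous EC. In cycling cells the histone sum was 2133 ± 498.1 CPM after hyperoxia and 1880 ± 1097 CPM in air at P7 (SD, n = 2 each), and the ranges overlapped. The CD31-gate cells of the 2 males shared a run, with 1781 CPM after hyperoxia and 2531 CPM in air. The females, with 2485 CPM after hyperoxia and 1104 CPM in air, were in different runs. Run and hyperoxia cannot be told apart for the females. In cycling cells edgeR called 0 of 62 histone genes and 0.0% of all genes, and DESeq2 and limma called 0 histone genes. The unadjusted edgeR p was under 0.05 for 0 of 62 histone genes, against 2.59% of all genes. The mice did not overlap in 6 genes that were higher and 12 that were lower after hyperoxia, 9.68% and 19.4% of those tested, against 16.6% and 16.4% of all genes.

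Among the genes at 10 CPM or more whose mice did not overlap, those with the smallest unadjusted p in cycling cells were Hist1h2bm and Hist1h2ae on the higher side and Hist1h1c and Hist1h2bc on the lower. Hist1h2ae had 332.4 and 274.9 CPM after hyperoxia against 73.5 and 258.7 CPM in air (log2 difference 0.88 ± 0.56, SE, edgeR adjusted p = 1). Hist1h2bm had 22.4 and 9.6 CPM against 7.3 and 2.2 CPM, with an edgeR adjusted p of 1. Hist1h1c had 156.2 and 120 CPM against 188.6 and 260 CPM (log2 difference -0.70 ± 0.51, SE, edgeR adjusted p = 1). Hist1h2bc had 60.4 and 61.4 CPM against 146.3 and 90.9 CPM (log2 difference -0.98 ± 0.76, SE, edgeR adjusted p = 1).

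In Car4- capillaries the sum was 249.2 ± 38.5 CPM after hyperoxia and 267.2 ± 34.3 CPM in air, with 0 of 45 histone genes and 0.0136% of all genes called by edgeR. The unadjusted edgeR p was under 0.05 for 3 of 45 histone genes, all lower after hyperoxia, against 5.52% of all genes in either direction. DESeq2 and limma called 0. The mice did not overlap in 4 higher and 10 lower genes, 8.89% and 22.2% of those tested, against 18.1% and 15.6% of all genes. In Car4+ capillaries the histone sum was 333.3 ± 66.4 and 306.3 ± 269.98 CPM, and in Venous EC 328.7 ± 47.6 and 185.7 ± 58.8 CPM. EdgeR called 0 of 21 and 0 of 16 histone genes in these labels, and 0.0% of all genes in each. The unadjusted p was under 0.05 for 0 and 1 histone genes, against 6.16% and 2.69% of all genes. DESeq2 and limma called 0 in both. In Venous EC, 15 of 16 fitted values were above 0 and 0 below, and the mice did not overlap in 6 genes that were higher and 0 that were lower after hyperoxia, 37.5% and 0% of those tested, against 17.6% and 16.5% of all genes. Most of these genes were near the floor, such as Hist1h2bg with 0.903 and 5.14 CPM after hyperoxia and 0 in both air mice. The S phase genes of Venous EC summed to 1203 ± 249.8 CPM after hyperoxia and 504.6 ± 361.2 CPM in air, and the G2 and mitosis genes to 264.96 ± 13.4 and 95.5 ± 91.6 CPM, and their part in the result was not tested. Hist1h2bc had 56.9 and 142.1 CPM in Car4+ capillaries after hyperoxia and 33.8 and 16.6 CPM in air, and Hist3h2a 39.6 and 48.8 CPM against 20.7 and 4.7 CPM (edgeR adjusted p = 0.73 and 0.87).

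The difference between cycling and noncycling cells was also tested for a change with hyperoxia, as an interaction term with the mouse as a block. EdgeR called 0 of 53 histone genes and 0.0% of all genes, with an unadjusted p under 0.05 for 1, and DESeq2 and limma called 0. The ratio of the cycling to the noncycling sum was 5.35 and 7.92 in the air mice at P7 and 9.49 and 5.44 in the hyperoxia mice, so the ranges overlapped.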

How the data were processed

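RNA was measured in 2931 lung endothelial cells, sorted into plates and made into libraries with Tn5 transposase, per the labels' protocols, with no molecular identifiers seen in the files. The deposited values are whole read counts per gene and cell. The submitters' processing notes name STAR 2.5.2b, HTSeq 0.10 and a build written as GRCh38 for these mouse cells; the annotation is not given in the sources used here. Members and gene lists were chosen with earlier results of these data known.

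Reads were summed per mouse and class (labels and mice as the submitters give them), for mice with at least 8 cells. The sums were tested in R 4.3.3 with edgeR 4.0.16 (TMM, filterByExpr, quasi-likelihood F test), with the mouse as a block for cycling against noncycling, and with all usable groups of a class in 1 fit otherwise. P-values were adjusted over all genes tested (Benjamini-Hochberg), and a gene was called under 0.05. Each SE was worked back from the edgeR test, as the size of the fitted log2 difference divided by the square root of F. It is not the SE of the differences seen in the single mice. CPM are reads per 1000000 reads of a sum. The fits were tested on simulated data. Sequences and lengths came from GENCODE M21 (GRCm38) and RefSeq promoters (GRCm38.p6).

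Genes named for cycling against noncycling were up to 8 called members with the largest change, at least 10 CPM and reads in 25% of cells, plus the 5 highest members of each class. For other comparisons they were called members or, with none called, up to 2 members per direction with the smallest p, no overlap of mice and at least 10 CPM. Alternatives were DESeq2 1.42.0, RLE scaling, no filter beyond 1 read, CD31-gate cells, cells thinned to 50000 reads, limma 3.58.1 on log2(mean CPM + 1), other classes, sex as a replicate block (or no block), and each mouse left out. Replicates share only their sex across groups. PCR copies of a molecule cannot be told from separate molecules.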

Additional observations from a re-analysis of the deposited data

Results flagged for a closer look

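The 10 cells labelled Proliferative venous EC entered no comparison and came from the hyperoxia mice only, 5 from each. Their summed histone level was 1597 CPM in the female and 2008 CPM in the male mouse, above the noncycling cells of the same mice (261.98 and 327.4 CPM). The male P21 mouse had 7 Proliferative EC cells, too few for the fit, with 916 CPM of histone reads against 249.2 CPM in its noncycling cells.

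Hist1h2bc lay lower after hyperoxia in both cycling sums and higher in both Car4+ capillary sums. The fitted effects differed by 2.77 on the log2 scale between these classes, and this difference was not tested.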

How the results depend on the processing

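Cycling against noncycling cells kept its direction under all alternatives. The number of histone genes called was 41, between 29 (thinned cells, where 33 genes were tested) and 47 (DESeq2), and 26 genes were called under every setting. Leaving out a mouse gave 37 to 43 calls. With no replicate block 41 were called. The ratio of summed levels was 6.42, between 5.86 and 6.55 under other cells or classes and between 6.07 and 6.61 without a mouse.

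In the other comparisons edgeR called 0 genes. DESeq2 called 3 between P1 and P7 and 1 between E18.5 and P7 in cycling cells, and 2 between P1 and P7 and 2 between P7 and P21 in Car4- capillaries. With no filter beyond 1 read, edgeR called 2 genes between P1 and P7 and 2 between E18.5 and P7 in cycling cells. The shares of all genes called under these alternatives are not given here, so such calls cannot be read as particular to histone genes. Leaving out a mouse gave 0 to 1 calls between E18.5 and P1 and 0 to 3 between P1 and P7 in cycling cells, both highest without the female P1 mouse, which leaves 1 mouse at P1 with a spread assumed from the other groups, and 0 elsewhere. The causes were not tested. With sex as a replicate block, 0 genes were called in each of these comparisons. Of the values of named genes under alternatives, 14 newly passed the threshold, 0 lost it and 0 changed sign. Over all genes in cycling against noncycling cells, edgeR called 1157, DESeq2 2974 and limma 1977.

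In cycling against noncycling cells 10 of 63 histone genes did not reach the filter on low counts and were not tested. The groups of 2 mice limit the precision of each comparison by age or oxygen.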
